A study of Mus musculus with 6 samples.

Results

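Claudins, connexins and the other proteins that join the cells of an epithelium were measured as transcripts in the mouse duodenum. The set holds every gene-table row named as a numbered claudin (Cldn) or as a connexin of the Gja, Gjb or Gjd groups. To these it adds 21 named genes of tight junctions, adherens junctions, microvillus adhesion and desmosomes. The rule found 63 of the 23699 rows, and none of the named genes was missing. They are 26 claudin rows, 16 connexins, 9 other tight junction genes, 5 cadherins and microvillus protocadherins, 6 desmosome genes and Epcam.

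The libraries came from 6 adult mice of 6 weeks on a mixed background, 3 mutant and 3 control, with 1 library each. The mutants, named TNint, had the genotype Nkx2.2flox/TN; Villin-Cre/+; Rosa26Tomato/+. Controls 1 and 2 were Nkx2.2flox/+; Rosa26Tomato/+, and control 3 was Nkx2.2flox/+ with no Tomato reporter allele listed. All 6 mice therefore carried 1 floxed Nkx2.2 allele. Villin-Cre is a recombinase transgene active in the epithelium of the intestine, and Nkx2.2 is a transcription factor of enteroendocrine cells. TN is known as an allele with a mutated tinman domain, and the comparison asks what this mutation does in the intestine. Where Cre acts, it would also remove the floxed Nkx2.2 copy of the mutants, while controls without Cre keep theirs. The groups thus also differ in Cre, in this copy and in the TN allele of other tissues, and these cannot be told apart here. The tissue was the 2 cm of intestine next to the stomach, with the whole wall, so epithelium, muscle, vessels, nerve and immune cells are mixed in each library. The labels name no litter, sex or sequencing lane, and p-values below measure only the spread between these libraries.

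Tight junctions seal the gap between neighbouring epithelial cells near their apical end. Claudins form their strands, and some claudins make a barrier while others make pores for ions or water. Below them, E-cadherin holds adherens junctions together, desmosomes tie the keratin filaments of neighbours to each other, and connexins build the channels of gap junctions. In the small intestine the claudin pores return sodium to the lumen for nutrient uptake, and protocadherins link the tips of neighbouring microvilli in the brush border.

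The promoters of the 5 most abundant claudins and of Epcam are shown because these claudins carry most of the claudin transcript described next and Epcam is the most abundant member. Each is the 250 bases before a start site in RefSeq on GRCm38.p6, read 5′ to 3′ on the gene's own strand. Capitals mark matches on either strand to a GC box (GGGCGG), the usual TATA box (written TATAAA), a CDX2-like motif (TTTATNG) or an HNF4-like motif (CAAAGTNCA). CDX2 and HNF4 are transcription factors of the intestinal epithelium, and the TATA and CDX2 letters can share bases.
Cldn7, upstream start, chr11:69964529-69964778, plus strand: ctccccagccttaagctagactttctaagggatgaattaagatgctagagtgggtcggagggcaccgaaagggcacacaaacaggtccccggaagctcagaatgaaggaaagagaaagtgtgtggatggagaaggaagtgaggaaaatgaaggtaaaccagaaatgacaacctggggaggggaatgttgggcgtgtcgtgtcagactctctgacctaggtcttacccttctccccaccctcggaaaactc
Cldn7, downstream start, chr11:69965171-69965420, plus strand: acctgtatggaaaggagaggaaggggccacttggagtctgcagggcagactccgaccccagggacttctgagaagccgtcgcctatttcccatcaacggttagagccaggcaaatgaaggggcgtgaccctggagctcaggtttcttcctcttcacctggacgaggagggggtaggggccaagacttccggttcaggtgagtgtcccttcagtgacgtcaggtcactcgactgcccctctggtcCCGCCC
Epcam, chr17:87635729-87635978, plus strand: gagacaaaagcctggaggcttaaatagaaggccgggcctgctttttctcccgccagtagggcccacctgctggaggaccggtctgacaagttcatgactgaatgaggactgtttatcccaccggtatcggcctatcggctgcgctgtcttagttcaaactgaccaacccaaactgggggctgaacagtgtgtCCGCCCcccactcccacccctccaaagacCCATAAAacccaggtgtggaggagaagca
Cldn15, chr5:136967619-136967868, plus strand: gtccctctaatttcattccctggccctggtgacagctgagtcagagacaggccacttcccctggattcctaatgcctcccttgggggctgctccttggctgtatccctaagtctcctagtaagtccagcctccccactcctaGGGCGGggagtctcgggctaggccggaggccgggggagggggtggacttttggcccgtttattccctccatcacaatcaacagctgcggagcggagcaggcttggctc
Cldn3, chr5:134985964-134986213, plus strand: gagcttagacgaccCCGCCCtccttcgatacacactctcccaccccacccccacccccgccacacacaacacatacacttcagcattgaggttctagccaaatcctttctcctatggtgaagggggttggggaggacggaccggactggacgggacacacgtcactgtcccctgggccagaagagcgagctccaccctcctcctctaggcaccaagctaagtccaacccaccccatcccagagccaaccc
Cldn4, chr5:134946935-134947184, minus strand: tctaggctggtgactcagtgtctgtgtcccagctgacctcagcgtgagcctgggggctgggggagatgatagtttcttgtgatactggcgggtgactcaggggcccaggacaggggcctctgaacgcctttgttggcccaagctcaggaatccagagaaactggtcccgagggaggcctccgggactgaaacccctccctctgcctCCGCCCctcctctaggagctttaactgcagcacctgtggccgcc
Cldn2, chrX:139800558-139800807, plus strand: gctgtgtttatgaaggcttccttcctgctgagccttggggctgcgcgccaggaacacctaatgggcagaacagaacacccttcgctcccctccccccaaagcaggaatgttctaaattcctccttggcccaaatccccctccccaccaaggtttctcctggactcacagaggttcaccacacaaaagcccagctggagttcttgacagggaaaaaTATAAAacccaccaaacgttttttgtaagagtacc
A GC box was present in 5 of these 7 windows, against 32.7% of the 32851 RefSeq windows of the same length. The TATA letters were found in the Cldn2 window (12.4% of all windows) and the CDX2 letters in the Epcam window (9.81%). The HNF4 letters were in none of the 7 (1.19% of all windows). The 2 Cldn7 start sites lie 642 bases apart and correspond to the pair of Cldn7 transcripts described below. These matches describe letters in the windows and were not measured as binding.

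Depth, read from the confidence intervals of the deposited values, was 16.88, 25.91 and 21.97 M implied reads (M, megareads) in mutants 1 to 3 and 14.21, 21.25 and 19.91 M in controls 1 to 3. The junction genes together took 0.648% to 0.731% of all FPKM (a fragment count normalised to transcript length and sequencing depth) in mutants and 0.641% to 0.783% in controls. The targeted gene Nkx2-2 had 0.748, 0.744 and 0.666 FPKM in mutants, against 1, 1.03 and 1.27 FPKM in controls. The labelled tissue was checked on enterocyte markers, and Vil1, the villin gene, had 644 to 699 FPKM in mutants and 630 to 685 FPKM in controls. The 2 libraries numbered 3 stand apart from the other 4. They had 23.2 FPKM (mutant 3) and 34 FPKM (control 3) of Xist, the X inactivation transcript, where no other library exceeded 0.0642 FPKM. Ddx3y, a Y chromosome gene, had 0.0414 FPKM in mutant 3 and 0.0569 FPKM in control 3, against 12.8 to 15.1 FPKM in the other 4. By both genes mutant 3 and control 3 read as female and the others as male, though the labels give no sex. Mutant 3 and control 3 each also had the most pancreatic acinar transcript of their group.

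In the control duodenum the junction programme was led by Epcam, by the intestinal cadherins and by a few claudins. By control mean, 8 members had 100 FPKM or more, 20 had 10 to 100, 6 had 1 to 10, and the other 29 were below 1 FPKM. The 8 most abundant were Epcam, Cdh17, Cdhr5, Cldn7, Cdhr2, Cldn15, Cldn3 and Cdh1, with control means of 759, 600, 560, 534, 520, 410, 219 and 180 FPKM. FPKM is a level per length, so levels of different genes can be set side by side. Epcam was in place 102 of all 23699 rows by control mean. In whole tissue a lower level can come from fewer cells of a type or from less RNA per cell, and these cannot be told apart.

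The order was stable among the control mice in its broad steps and often loose within them. Of the 33 neighbouring pairs among the 34 members at 1 FPKM or more, 23 had overlapping control ranges, so ranges alone do not separate them. Some of these pairs still kept their places in all 3 controls. They include Cdh17 and Cdhr5 (places 2 and 3), Cldn3 and Cdh1 (7 and 8), and Jam3 and Jam2 (30 and 31). The 10 steps without overlap followed Epcam, Cldn15, Cdh1, F11r, Dsg2, Cgn, Marveld3, Pkp2, Marveld2 and Gjb2. Ranked by median in place of mean, 28 of the 34 kept their place. The loosest stretch ran from Cldn2 to Jup, where control means lay between 59.8 and 77.3 FPKM and Cldn2 was in places 10 to 15 depending on the control library.

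**Figure D1:**
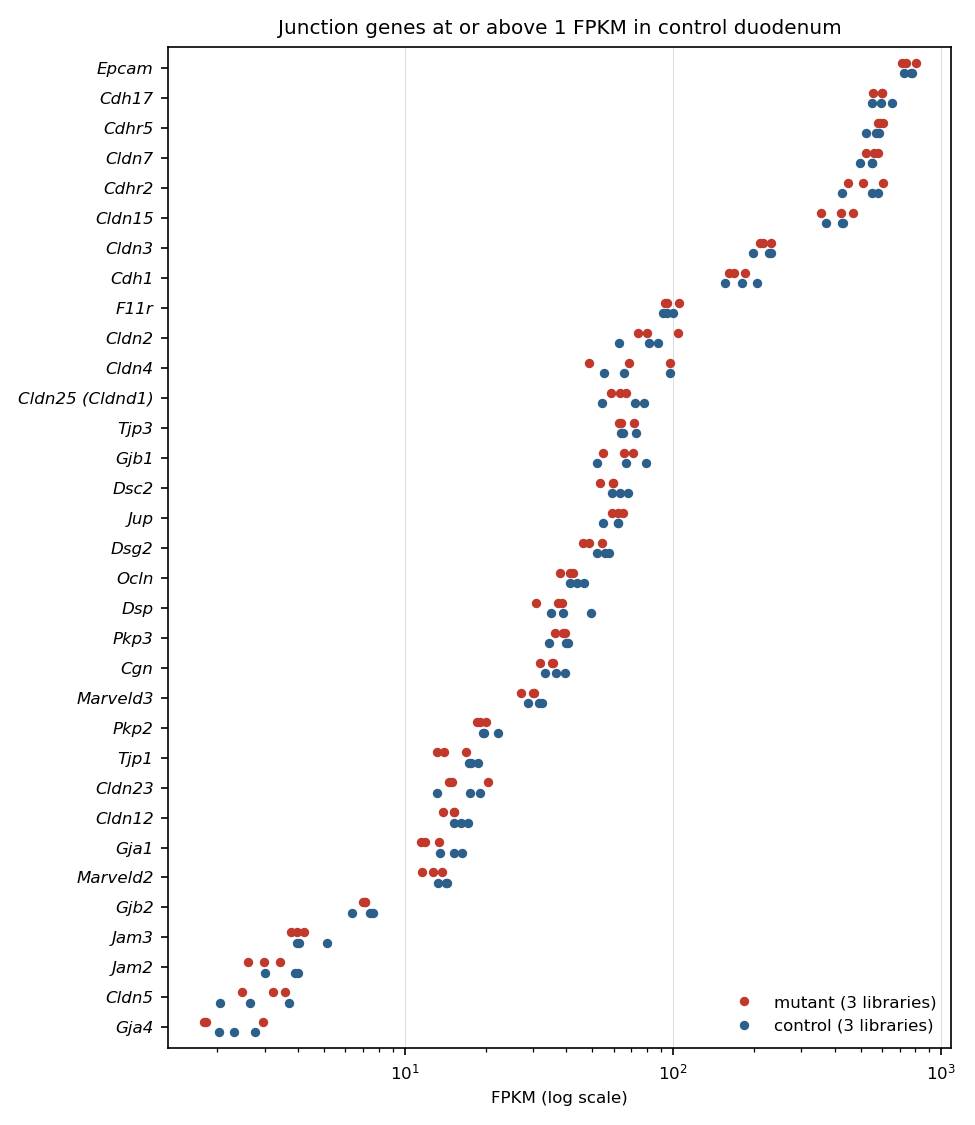
FPKM on a log scale in each of the 3 mutant (red, upper row of each pair) and 3 control (blue, lower row) libraries, for 33 of the 34 junction genes with a control mean of 1 FPKM or more, ordered by that mean. Mutant and control points lie together for nearly all genes; Tjp1 and Gja1 are the 2 whose mutant points all lie below the control points.

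Between mutant and control, no junction gene passed the test over all genes. Of the 63 members, 44 had a mean of at least 0.1 FPKM and were tested, 19 were below that filter, and 0 passed an adjusted p of 0.05 in limma. Over all 15864 tested rows 0 passed as well (0.0%), with a smallest adjusted p of 0.25, and 0.79 among the members. At an unadjusted p under 0.05 there were 2 members, Gja1 and Tjp1, both lower in mutants, which is 4.55% of those tested against 5.81% of all rows. The background by direction was 4.32% lower and 1.49% higher, and no member was higher. With the replicate number as a block the count was 4 lower (Cldn20, Gja1, Tjp1 and Dsp) and 1 higher (Cldn22), with adjusted p = 0.61 for each of the 5 in limma. These 5 are 11.4% of the tested members, against 7.89% of all rows under the same block (5.09% lower and 2.81% higher). Without control 2 or mutant 1 the count was 0 lower, without control 1 or mutant 3 it was 1, and without control 3 or mutant 2 it was 3. Without both libraries numbered 3 it was 0. In the authors' deposited table, 60 members had a p and 0 of them were under 0.05, against 1.61% of 18541 genes. The smallest was 0.08, and 0.0378% of all genes passed its adjusted p.

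The 3 mutant values lay wholly apart from the 3 control values for 3 of the 44 tested members (6.82%), against 13.1% of all rows. Gja1 and Tjp1 were below in every mutant (background 9.92%), and Cldn22 was above in every mutant (3.13%). The median log2 fold change, mutant minus control on log2(FPKM + 0.1), was −0.04 over the members and −0.05 over all rows. Negative values made up 29 of 44 members (65.9%) and 61.3% of all rows, and this split was 22 of 44 after trimmed mean scaling and 33 of 44 after quantile normalization. Over all rows the unadjusted counts were 237 higher and 685 lower, against 553 higher and 366 lower after trimmed mean scaling, and 360 higher and 431 lower after quantile normalization.

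The intervals of the differences were narrow for the abundant genes. Of the 28 members with a mean of 10 FPKM or more, 27 had a 95% interval of the difference within 1.5-fold either way, and 15 within 1.25-fold. The exception at 1.5-fold was Cldn4. Their median within-group standard deviation was 0.1 on the log2 scale, against 0.12 for the 6630 rows of that abundance.

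**Figure D2:**
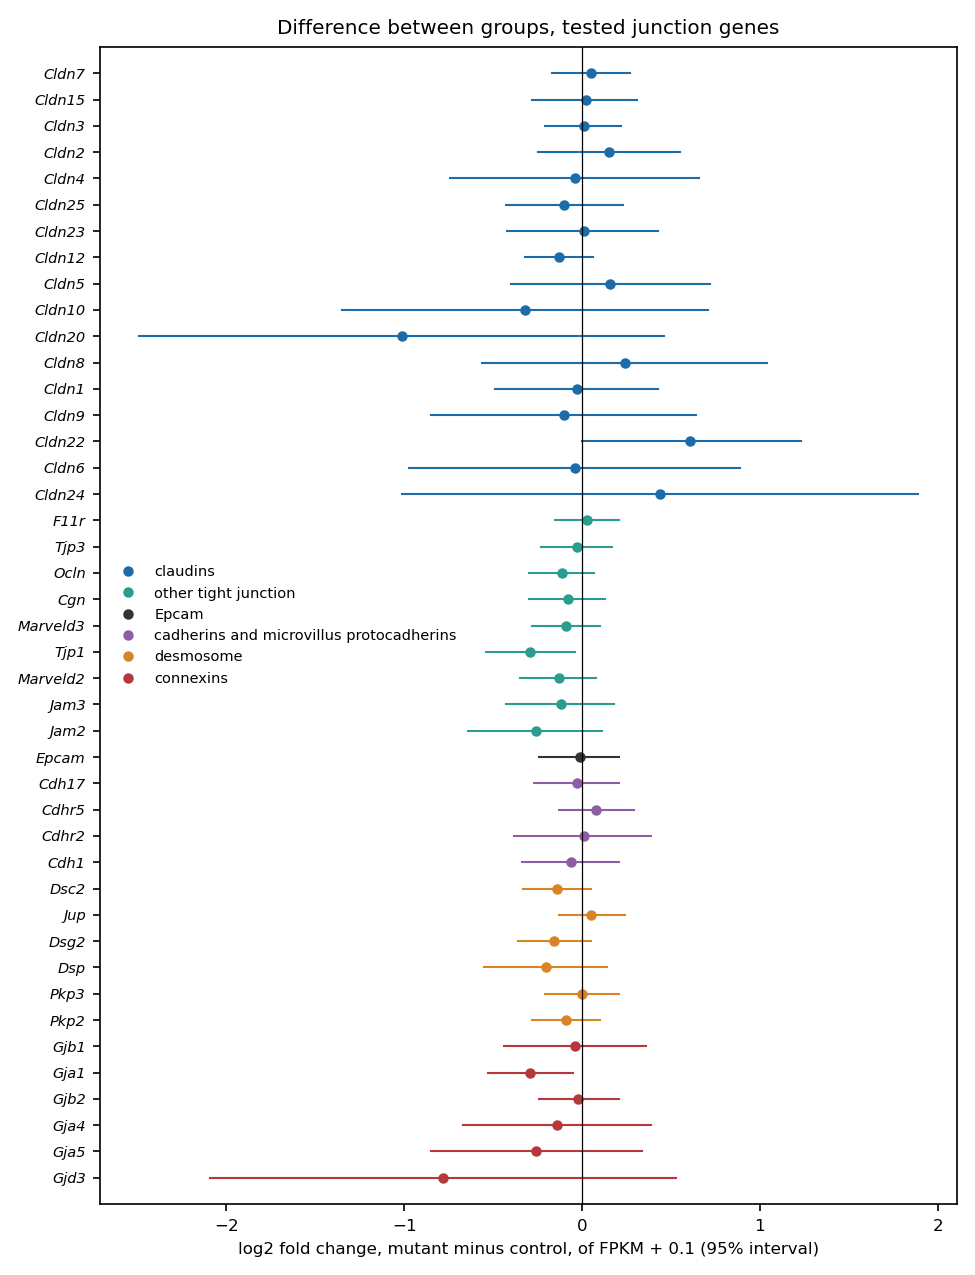
Log2 fold change of FPKM + 0.1, mutant minus control, for 43 of the 44 tested junction genes (points) with the 95% interval from limma (lines), coloured by role. The intervals of Tjp1 and Gja1 are the 2 that lie wholly below 0, both at −0.29, and the widest intervals belong to claudins and connexins under 1 FPKM.

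Among claudins, Cldn7 was the most abundant in both groups. Cldn7 (chr11:69778281-69781388 on mm9, the build of all gene positions below) is a claudin of the lateral membrane of gut epithelium that binds Epcam. It had 580, 523 and 559 FPKM in mutants, against 552, 554 and 496 FPKM in controls. The groups overlapped, with means of 554 ± 28.7 FPKM in mutants and 534 ± 33.2 FPKM in controls (SD, n = 3 each, as for every ± below). Its log2 fold change was 0.05 (SE 0.093, adjusted p = 0.92 in limma), with an interval from −0.17 to 0.27.

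Cldn15 and Cldn2 form cation pores. Cldn15 (chr5:137443739-137451715), the main sodium pore of small intestine, had 468, 357 and 424 FPKM in mutants and 373, 430 and 427 FPKM in controls. Both the lowest and the highest library were mutants, and the log2 fold change was 0.02 (SE 0.12, adjusted p = 0.98 in limma). Cldn2 (chrX:136335347-136345927), a second cation pore known from crypts, had 79.7, 74.3 and 104 FPKM in mutants and 81.4, 63.1 and 87.6 FPKM in controls. The groups overlapped here too, and within each group library 3 was the highest. The log2 fold change of Cldn2 was 0.15 (SE 0.17, interval −0.25 to 0.55, adjusted p = 0.85). The ratio of Cldn15 to Cldn2 was 4.92 ± 0.901 in mutants and 5.42 ± 1.21 in controls.

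Cldn3 and Cldn4, barrier claudins that also serve as receptors of Clostridium perfringens enterotoxin, are neighbours on chromosome 5. Cldn3 (chr5:135462084-135463346) had 231, 211 and 217 FPKM in mutants and 232, 227 and 198 FPKM in controls. These values overlapped fully, with a log2 fold change of 0.01 (SE 0.089, adjusted p = 1 in limma). Cldn4 had 97.4, 68.5 and 48.7 FPKM in mutants and 97.2, 65.8 and 55.1 FPKM in controls. It varied far more between mice than between groups: the same-numbered mutant and control differed by little, and its interval of −0.74 to 0.66 was the widest of the members above 10 FPKM. Cldn23, with 16.7 ± 3.23 FPKM in mutants and 16.6 ± 3.02 in controls, and Cldn12, with 14.8 ± 0.81 FPKM in mutants and 16.3 ± 0.929 in controls, were the remaining claudins above 10 FPKM apart from the Cldn25 row, which is described further on.

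The share of each claudin above 10 FPKM overlapped between the groups. Cldn7 gave 40.1 ± 1.25% of summed claudin FPKM in mutants and 39.5 ± 1.11% in controls, and Cldn15 gave 30 ± 1.67% in mutants and 30.4 ± 2.97% in controls. Cldn3 followed with 15.9 ± 0.644% in mutants and 16.2 ± 0.836% in controls. Cldn2 gave 6.22 ± 1.14% in mutants and 5.74 ± 1.1% in controls, and Cldn4 gave 5.13 ± 1.51% in mutants and 5.36 ± 1.49% in controls. Cldn12 gave 1.02%, 1.21% and 1% in mutants and 1.25%, 1.18% and 1.18% in controls, where only the highest mutant reached the controls. The sum was 1390 ± 114 FPKM in mutants and 1350 ± 46.7 FPKM in controls. Rows Cldn25, Cldn26 and Cldn27 were left out of this pool, since RefSeq now gives their transcripts the names Cldnd1, Tmem114 and Tmem235, which are not numbered claudins.

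**Figure D3:**
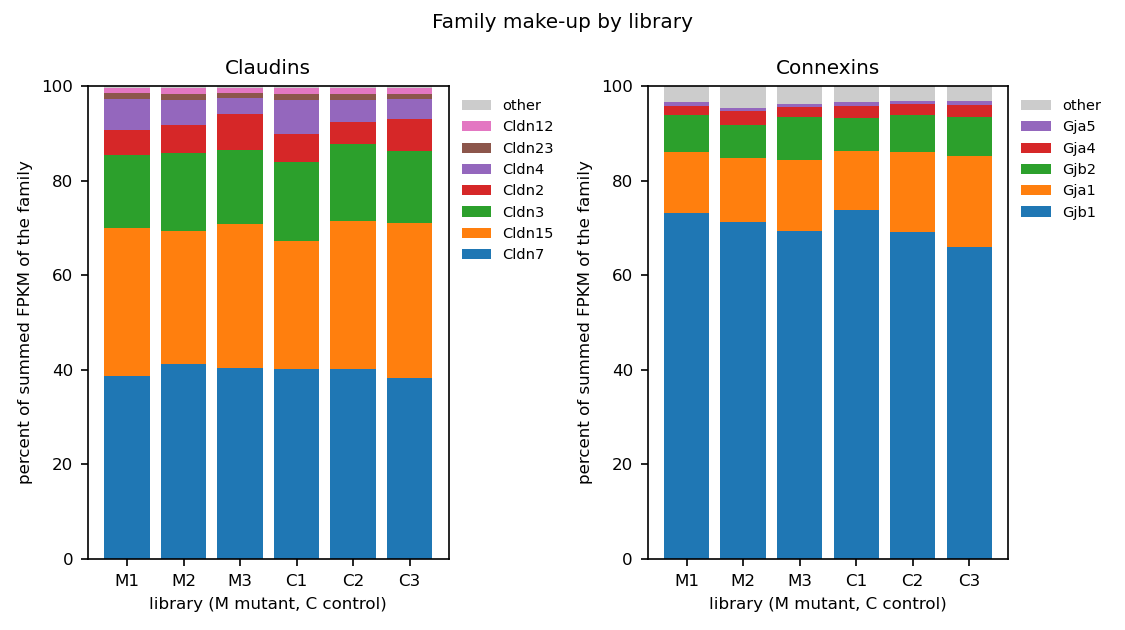
Percent of summed FPKM taken by named claudins (left) and named connexins (right), with the rest of each family in grey, in mutant libraries M1 to M3 and control libraries C1 to C3, as stacked bars. Cldn7 and Cldn15 fill the lower part of every claudin bar (38.2% to 41.2% and 27.1% to 32.9%), and Gjb1 takes 65.9% to 73.7% of every connexin bar.

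The remaining claudins were low. Cldn5, the claudin of blood vessel endothelium, had 3.09 ± 0.561 FPKM in mutants and 2.8 ± 0.83 in controls, beside endothelial markers that summed to 80 to 90.4 FPKM in mutants and 82.1 to 88.9 FPKM in controls. Cldn22 was the 1 member above in every mutant, with 0.536, 0.445 and 0.296 FPKM in mutants and 0.283, 0.241 and 0.193 FPKM in controls. These values rest on 2 to 9 implied reads per library, and the lowest mutant and the highest control were close. The log2 fold change was 0.61 (SE 0.26), with adjusted p = 0.79 and an unadjusted 0.051 in limma. The exact 2-sided permutation p over the 6 libraries was 0.1, the smallest that 3 against 3 can give. The unadjusted p was under 0.05 with a pseudocount of 1 (0.049), no filter (0.035), trimmed mean scaling (0.035), quantile normalization (0.023), limma without trend (0.024), the replicate block (0.046) and the acinar covariate (0.03), with adjusted p = 0.61 to 0.9 in limma. Without mutant 3 it was 0.023, and without each of the other 5 libraries it was 0.056 to 0.16 (limma, adjusted over all rows none passed).

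Cldn1, Cldn6, Cldn8, Cldn9, Cldn10 and Cldn24 had control means of 0.1 to 0.794 FPKM and overlapping groups. Cldn20 had 0.133, 0.0862 and 0.509 FPKM in mutants and 0.473, 0.21 and 1.12 FPKM in controls, on 1 to 10 implied reads. The Cldn20 row lies wholly within Tfb1m on the opposite strand. Whether counting used strand is not stated in the labels or headers, so reads of the 2 genes may not be separable. Cldn11, Cldn13, Cldn14, Cldn16, Cldn18, Cldn19 and Cldn27 had a control mean of 0.118 FPKM or less and were not tested. They include the stomach and lung claudin Cldn18 and the kidney magnesium claudins Cldn16 and Cldn19. Cldn17 and Cldn26 were listed at 0 in all 6 libraries.

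Of the 9 other tight junction genes, 8 had a negative log2 fold change, and 1 of these, Tjp1, had an unadjusted p under 0.05. Among all tested rows 61.3% were negative and 4.32% were lower at that p in limma. After trimmed mean scaling 7 of the 9 were negative, and after quantile normalization all 9 were. F11r (chr1:173367692-173394724), junctional adhesion molecule A, had 94.8, 93.5 and 105 FPKM in mutants and 99.9, 94.9 and 91.7 FPKM in controls. The groups overlapped, with a log2 fold change of 0.03 (SE 0.076, adjusted p = 0.95 in limma). Tjp3, the scaffold ZO-3, had 71.4, 63.7 and 62.7 FPKM in mutants and 73, 64 and 65.2 FPKM in controls. It overlapped as well, with −0.03 (SE 0.085, adjusted p = 0.96). Tjp3 shares 47 bases with Apba3 on the opposite strand, and Dsg2 and Dsp also overlap a gene there.

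Tjp1 (chr7:72441051-72516130) encodes ZO-1, the scaffold that ties claudins to actin. It had 14, 16.9 and 13.2 FPKM in mutants and 18.7, 17.7 and 17.3 FPKM in controls. Every mutant lay below every control, with mutant 2 close to control 3. The log2 fold change was −0.29 (SE 0.1, interval −0.54 to −0.04), with adjusted p = 0.79 and an unadjusted 0.029 in limma, and an exact permutation p of 0.1. The unadjusted p was 0.0035 without mutant 2 and 0.045 without control 3, and 0.059 to 0.092 without each of the other 4 libraries. It was 0.1 with the acinar level as covariate, and 0.1 without both libraries numbered 3 (log2 −0.24). It was 0.025 with the replicate block, 0.04 with trimmed mean scaling and 0.031 with quantile normalization, with adjusted p = 0.61 to 0.9 in limma. In the authors' deposited table Tjp1 had a log2 fold change of −0.23 and p = 0.11. The ratio of Tjp3 to Tjp1 was 4.54 ± 0.691 in mutants and 3.76 ± 0.137 in controls, with mutant 2 at 3.77 within the control range of 3.62 to 3.9.

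Ocln, occludin, had 40.5 ± 2.31 FPKM in mutants and 43.9 ± 2.73 in controls. The related tetraspan proteins Marveld3 and Marveld2 (tricellulin, of 3-cell corners) had 29.1 ± 1.77 and 12.7 ± 1.13 FPKM in mutants, against 31 ± 1.9 and 14 ± 0.613 FPKM in controls. Cgn, cingulin, had 34.4 ± 2.14 FPKM in mutants and 36.5 ± 3.24 in controls. Jam3 and Jam2 were lower in level, at 3.98 ± 0.216 and 3.01 ± 0.419 FPKM in mutants and 4.37 ± 0.661 and 3.64 ± 0.537 FPKM in controls. All 6 of these genes had overlapping groups, with log2 fold changes from −0.26 (Jam2) to −0.08 (Cgn).

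Epcam (chr17:88035319-88050467), an epithelial adhesion protein that stabilises Cldn7 and whose loss causes tufting enteropathy, was the most abundant member in every library. It had 741, 711 and 803 FPKM in mutants and 726, 770 and 779 FPKM in controls. The lowest and the highest values were both from mutants. The means were 752 ± 46.7 FPKM in mutants and 759 ± 28.6 FPKM in controls. It had a log2 fold change of −0.01 (SE 0.095, interval −0.24 to 0.21, adjusted p = 0.98 in limma).

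Cadherins and microvillus protocadherins filled 4 of the 8 highest places. Cdh17 (chr4:11685304-11745052), the liver-intestine cadherin, had 603, 601 and 556 FPKM in mutants and 653, 595 and 552 FPKM in controls. Cdhr5 (chr7:148454984-148462685), a microvillus protocadherin, had 592, 604 and 580 FPKM in mutants and 570, 586 and 524 FPKM in controls. The groups overlapped for both, with log2 fold changes of −0.03 (SE 0.1, adjusted p = 0.97 in limma) for Cdh17 and 0.08 (SE 0.087, adjusted p = 0.85) for Cdhr5. Cdhr2, the partner of Cdhr5 at microvillus tips, had 521 ± 78.4 FPKM in mutants and 520 ± 82.5 in controls. The ratio of Cdhr5 to Cdhr2 was 1.15 ± 0.147 in mutants and 1.09 ± 0.122 in controls, so the partners were at near equal level. Cdh1, E-cadherin, had 172 ± 12 FPKM in mutants and 180 ± 24.8 in controls, and Cdh17 exceeded it 3.42 ± 0.149 times in mutants and 3.34 ± 0.188 times in controls. Cdhr1, a photoreceptor cadherin, was under 0.1 FPKM in every library and was not tested.

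Desmosome genes were at mid level, with control means from 20.5 FPKM (Pkp2) to 63.4 FPKM (Dsc2). Dsc2, desmocollin 2, had 59.5, 59.6 and 53.6 FPKM in mutants and 67.7, 63.3 and 59.3 FPKM in controls. Jup (chr11:100230170-100259104), plakoglobin, had 62.1, 65 and 59 FPKM in mutants and 62.2, 62.3 and 55 FPKM in controls. The mutants of Dsc2 reached into the lower end of the control range, and the ranges of Jup overlapped in part, with the highest library a mutant and the lowest a control. The log2 fold changes were −0.14 (SE 0.08, adjusted p = 0.79 in limma) for Dsc2 and 0.05 (SE 0.079, adjusted p = 0.9) for Jup. The desmosomal cadherins kept a steady ratio: Dsc2 over Dsg2 was 1.16 ± 0.0685 in mutants and 1.15 ± 0.0176 in controls.

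Dsg2, desmoglein 2, had 49.6 ± 4.38 FPKM in mutants and 55.2 ± 3.02 in controls. Dsp, desmoplakin, which anchors keratin, had 35.5 ± 4.08 FPKM in mutants and 41.1 ± 7.42 in controls, a log2 fold change of −0.2 (adjusted p = 0.8 in limma and 0.61 with the replicate block). The plakophilins Pkp3 and Pkp2 had 38.3 ± 1.83 and 19.2 ± 0.806 FPKM in mutants and 38.3 ± 3.43 and 20.5 ± 1.6 FPKM in controls.

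Gjb1 was the leading connexin of the duodenum. Gjb1 (chrX:98572676-98580963), an epithelial connexin best known from liver, had 65.5, 71.1 and 54.7 FPKM in mutants and 79, 66.9 and 52.1 FPKM in controls. The groups overlapped, library 3 was the lowest in each, and the log2 fold change was −0.04 (SE 0.17, interval −0.44 to 0.36, adjusted p = 0.98 in limma). Gjb1 made up 71.3 ± 1.91% of connexin FPKM in mutants and 69.6 ± 3.89% in controls.

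Gja1 (chr10:56097106-56110225), the widespread connexin of muscle and connective tissue, had 11.5, 13.4 and 11.9 FPKM in mutants and 13.5, 16.3 and 15.3 FPKM in controls. Every mutant was below every control, with mutant 2 and control 1 nearly equal. The log2 fold change was −0.29 (SE 0.1, interval −0.53 to −0.05), with adjusted p = 0.79 and an unadjusted 0.025 in limma, and an exact permutation p of 0.1. The authors' deposited table gave −0.24 with p = 0.08. The unadjusted p was 0.012 without control 1 and 0.017 without mutant 2, and 0.063 to 0.085 without each of the other 4 libraries. With trimmed mean scaling it was 0.062, and without both libraries numbered 3 it was 0.13 (log2 −0.26). It was 0.0082 with the replicate block, 0.026 with the acinar covariate and 0.049 with quantile normalization, with adjusted p = 0.61 to 0.9 in limma.

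Smooth muscle markers had negative values too. All 10 tested smooth muscle genes had a negative log2 fold change (median −0.44), 9 of them with an unadjusted p under 0.05 and none past an adjusted p. Over all rows 61.3% were negative, and 4.32% were lower at that unadjusted p in limma. Their summed level was 557 to 717 FPKM in mutants and 738 to 1000 FPKM in controls, with no marker at 0. Myh11, smooth muscle myosin, had 53.2 ± 4.37 FPKM in mutants and 76.7 ± 8.23 in controls. The part of muscle content in the Gja1 value was not tested.

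Of the other connexins, Gjb2 had 7.04 ± 0.0679 FPKM in mutants and 7.14 ± 0.675 in controls. The vessel connexins Gja4 and Gja5 had 2.19 ± 0.671 and 0.587 ± 0.176 FPKM in mutants, against 2.37 ± 0.367 and 0.712 ± 0.142 FPKM in controls. Gjd3 averaged 0.0862 FPKM in mutants and 0.228 FPKM in controls on 0 to 4 implied reads. Gja3, Gja6, Gja10, Gjb5, Gjb6, Gjd2 and Gjd4 were below the filter, and Gjd4 was listed at 0 in all 6 libraries.

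For several members the 2 libraries numbered 3 lay outside the range of the other 4. In the libraries numbered 3, Cldn4 had 48.7 to 55.1 FPKM, against 65.8 to 97.4 in the other 4 libraries, and Gjb1 had 52.1 to 54.7 FPKM, against 65.5 to 79. Cdhr2 was also lower there, at 426 to 449 FPKM against 511 to 604, as were Cdh1 (156 to 161 against 169 to 205), Dsp (30.8 to 35.1 against 37.1 to 49.4) and Cldn23 (13.2 to 14.6 against 15 to 20.4). Cldn2 was the 1 of these 7 that was higher in them, at 87.6 to 104 FPKM against 63.1 to 81.4. These 7 are examples, and other members split the same way. Epcam was higher in the libraries numbered 3 (803 and 779 FPKM against 711 to 770), as were the low Cldn10 and Cldn20. Cdh17 was lower (556 and 552 FPKM against 595 to 653), as were Cldn25, Dsc2, Jup, Pkp3, Jam3, Cldn5 and the low Cldn9. The share of all rows with such a split was not counted, so the split cannot be read as a trait of the junction genes. These genes were picked after their values were seen, and the part of Xist status or of acinar transcript in them was not tested. Pancreatic acinar markers summed to 3250, 3340 and 13400 FPKM in mutants 1 to 3 and to 229, 684 and 11900 FPKM in controls 1 to 3.

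**Figure D4:**
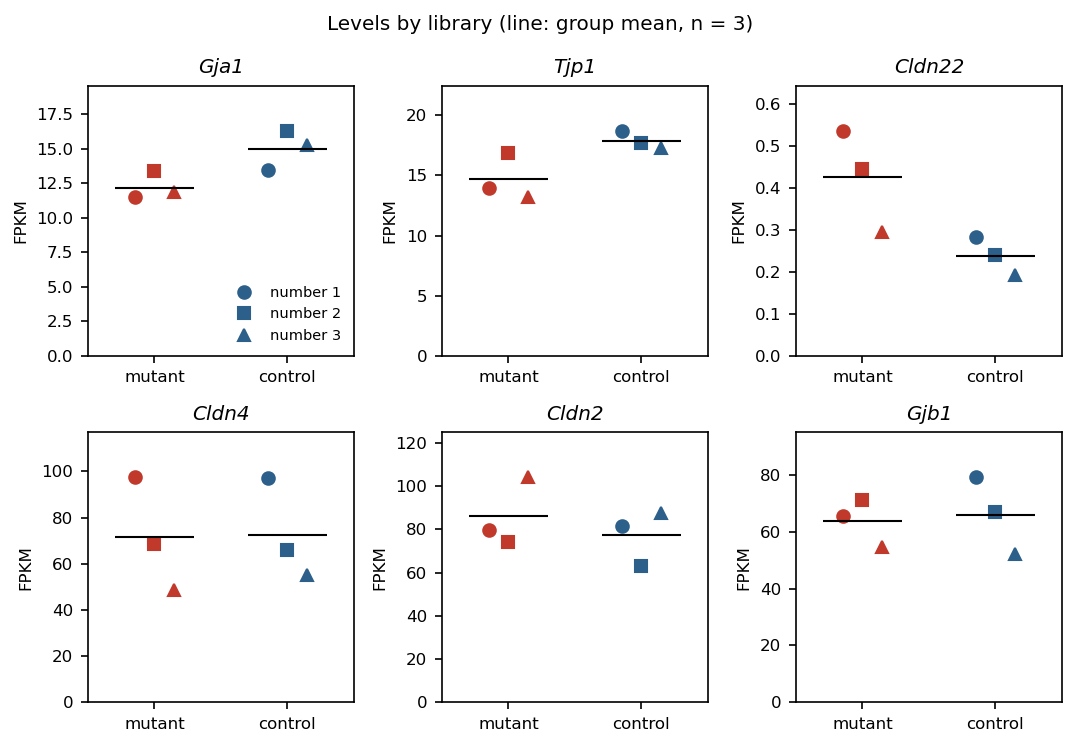
FPKM by library for Gja1, Tjp1, Cldn22, Cldn4, Cldn2 and Gjb1, mutant left and control right, with the replicate number as symbol and the group mean as a line (n = 3). For Gja1 and Tjp1 all mutant points lie below the control points and for Cldn22 above; for Cldn4 and Gjb1 the triangles (number 3) are lowest in both groups, and for Cldn2 highest.

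Junction genes outside the set had no member past the test either. A list of 69 further gene names covered tight, adherens and gap junctions, desmosomes, keratins and the microvillus complex. Of these, 66 had a row, 57 were tested, and none had an unadjusted p under 0.05 in limma in either direction. The names without a row were Cldnd1, now the name of the Cldn25 row, and Pals1 and Patj, entered as second names of Mpp5 and Inadl. Over all rows the share was 5.81%. Their median log2 fold change was −0.05. The smallest p belonged to the scaffold Magi3, with 11.6 ± 1.04 FPKM in mutants and 14 ± 1.6 in controls (log2 −0.27, adjusted p = 0.79 in limma). It was followed by Esam, an endothelial adhesion molecule, at 0.19, the cingulin relative Cgnl1 at −0.27 and the coxsackievirus receptor Cxadr at −0.17.

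Known partners of the members were close in level in the groups. Ctnnb1, beta-catenin, which binds Cdh1, had 317 ± 17.1 FPKM in mutants and 326 ± 17.2 in controls. The cytoplasmic partners of Cdhr2 and Cdhr5, namely Ush1c, Anks4b and Myo7b, had 122 ± 2.83, 105 ± 2.87 and 72.6 ± 9.11 FPKM in mutants, against 116 ± 2.34, 109 ± 8.98 and 70.6 ± 2.53 FPKM in controls. Lsr, the tricellular recruiter of Marveld2, had 92 ± 4.52 FPKM in mutants and 87.4 ± 6.17 in controls. Keratins Krt20 and Krt8 had 1160 ± 131 and 1140 ± 86.8 FPKM in mutants, against 1120 ± 118 and 1080 ± 112 FPKM in controls. The skin desmosome genes Dsc1, Dsg1a and Dsg3 were listed at 0 in all 6 libraries.

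Markers of the other cell types in the wall frame these values, as counts with an unadjusted p under 0.05 and summed FPKM. Over all rows 4.32% were lower and 1.49% higher at that p in limma. Villus enterocyte genes had 0 of 11 (22600 to 31400 FPKM in mutants, 19400 to 31000 in controls). Crypt genes had 1 of 8, Mki67 at −0.29 (1940 to 3810 in mutants, 3010 to 4680 in controls), and endothelial genes had 0 of 11. Fibroblast genes had 2 of 7 lower (284 to 340 in mutants, 316 to 333 in controls) and neuron and glia genes 1 of 8 lower (12.8 to 14.1 in mutants, 15 to 16.5 in controls). Immune genes had 0 of 6 (174 to 198 in mutants, 173 to 212 in controls), mesothelial genes 0 of 5 (700 to 716 in mutants, 657 to 730 in controls), and acinar genes 0 of 13. Nearly all of the mesothelial sum was the keratin Krt19, with 704 ± 8.9 FPKM in mutants and 698 ± 40.7 in controls. Control means of Msln, Upk3b and Lrrn4 were under 1 FPKM, with log2 fold changes of −0.98, −1.04 and −0.77. Upk1b had 2.34 FPKM in controls and a log2 fold change of 0.19. Stomach genes had 0 of 6 tested (90.2 to 242 in mutants, 38.1 to 690 in controls), with Muc5ac at 0 in every library. Squamous genes had 0 of 1 tested (1.31 to 4.87 in mutants, 1.96 to 2.34 in controls), with Krt13 and Krt6a at 0. Most of that sum was Sprr1a, with 2.72 ± 1.88 FPKM in mutants and 2.05 ± 0.198 in controls. With the replicate block the unadjusted counts were 13 of 13 higher for acinar genes, 1 of 6 higher for stomach genes, and lower for 10 of 10 smooth muscle, 2 of 8 crypt, 2 of 7 fibroblast, 2 of 6 immune and 0 of 8 neuron and glia genes, with 0 past an adjusted p in limma. Over all rows under the same block 5.09% were lower and 2.81% higher.

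At transcript level, 14 members had more than 1 RefSeq transcript, and 8 had at least 2 of them at 1 FPKM or more. Cldn7 was mostly NM_016887, from the downstream start, with 504 ± 54.9 FPKM in mutants and 511 ± 29.9 in controls. This transcript held 86.9% to 97.1% of Cldn7 in mutants and 93.4% to 97% in controls. The transcript from the upstream start, NM_001193619, had 16.9, 68.5 and 64.1 FPKM in mutants and 36.3, 16.6 and 17.3 FPKM in controls. Mutants 2 and 3 were above all controls and mutant 1 was among them, so the groups overlapped. Its share of Cldn7 was 9.16 ± 5.47% in mutants and 4.35 ± 1.94% in controls. Assignment of shared reads to transcripts is an estimate, and it was not tested between groups.

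For Tjp1, NM_009386 had 9.82, 12.8 and 8.73 FPKM in mutants and 12.5, 13.2 and 13.5 FPKM in controls, and NM_001163574 had 4.26 ± 0.217 FPKM in mutants and 4.84 ± 1.22 in controls. The larger transcript made up 70.6 ± 4.91% of Tjp1 in mutants and 73.2 ± 5.65% in controls, so its share overlapped between the groups. Cdhr5 was split into 64.5 ± 3.78% and 35.5 ± 3.78% in mutants and 66.3 ± 0.695% and 33.7 ± 0.695% in controls, and Marveld3 into 55.3 ± 3.23% and 44.7 ± 3.23% in mutants and 59 ± 2.56% and 41 ± 2.56% in controls. In Marveld2, NM_001038602 made up 88.8 ± 9.58% in mutants and 88.4 ± 5.67% in controls. The split of Cldn12 was unstable among replicates, with NM_001193661 at 65.5 ± 14% in mutants and 53.6 ± 19.5% in controls.

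The Cldn25 row, which ranked 12 among the members with 62.9 ± 3.89 FPKM in mutants and 68.2 ± 12.4 in controls, was mostly assigned to RefSeq transcripts with an NR prefix, the prefix for RNAs not annotated as coding. These 2 transcripts held 93.5% to 97.2% of the row in mutants and 91.1% to 97.2% in controls. The split among its 5 transcripts, which share their start and end, is an estimate.

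Some neighbouring members in the genome differed widely in level, and others were nearer to each other. On mm9, 20 members lie within 100 kb of another. On chromosome 5, Cldn13 (0 FPKM in mutants and a mean of 0.0574 FPKM in controls) lies 29.6 kb from Cldn4 (71.5 FPKM in mutants, 72.7 in controls), which lies 39.3 kb from Cldn3 (219 FPKM in each group). On chromosome 14, Gjb2 (7.04 FPKM in mutants, 7.14 in controls) lies between Gja3 (0.0215 FPKM in mutants, 0.0477 in controls) and Gjb6 (0.00894 FPKM in mutants and 0 in controls). Ocln and Marveld2, 43.5 kb apart on chromosome 13, were both above 10 FPKM. Cldn6 and Cldn9, 0.137 kb apart on chromosome 17, were both low (0.119 and 0.252 FPKM in mutants, 0.111 and 0.266 in controls).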

How the data were processed

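Transcripts of whole duodenum from 3 mutant and 3 control mice were analysed, grouped by the genotype labels. The submitters' processing notes name CASAVA 1.8.2, TopHat, Cufflinks and DESeq and the build mm9. Versions of the last 3, the annotation and any strand setting were not given in the sources used here. FPKM, per the file headers, was deposited by the authors with a confidence interval for each gene and each RefSeq transcript, with transcript length as another column. The authors' deposited DESeq table holds group means of size-factor scaled reads (a signal), their ratio as a fold, its log2 value and p-values. An FPKM value carries no count, so the depth was read from the confidence intervals as implied reads. FPKM is scaled to each library's total, so transcript of other tissue in a library lowers the values of all other genes in it.

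The test was limma 3.58.1 (R 4.3.3) with a trended prior on log2(FPKM + 0.1), run on rows averaging at least 0.1 FPKM, with no covariate or block, and Benjamini-Hochberg adjustment over all 15864 rows at 0.05. It was tested on simulated data. Such fold changes understate differences of genes near the pseudocount. Members, lists and tests were chosen with earlier results of these data known. Full values are given for the 4 most abundant claudins, the 2 most abundant members of every other role, members with an unadjusted p under 0.05 and members whose groups do not overlap. Deviations of same-numbered libraries from their group means correlated at r = 0.11, 0.21 and 0.39 for numbers 1, 2 and 3. The value was 0.13 for mutant 2 with control 1, and −0.28 to 0.06 for the other 5 unlike-numbered pairs. A fit with the number as a block was therefore run as an alternative, although the labels name no reason for a pairing. The main test did not use this block. Blocked values are printed where they change a count, and for the members with an unadjusted p under 0.05 in the main test. A few members enter the counts but are not reported here by name or drawn. The figures were drawn with matplotlib 3.10.9.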

Additional observations from a re-analysis of the deposited data

How the results depend on the processing

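No member passed an adjusted p of 0.05 under any of the 16 alternatives, and the smallest adjusted p was 0.61 (Gja1, replicate block). The counts below are at an unadjusted p under 0.05, and the cause of their moves was not tested. Members higher were 1 with a pseudocount of 1, no filter on low values, trimmed mean scaling, quantile normalization, limma without trend or the replicate block, and 2 with the pancreatic acinar covariate. Members lower were 2 in the main test, 1 with trimmed mean scaling, 3 with quantile normalization or the acinar covariate and 4 with the replicate block. Without both libraries numbered 3, an alternative chosen after seeing the data, they were 0. Leaving out 1 library gave 0 to 1 higher and 0 to 3 lower. Other junction genes higher were 1 with either rescaling; lower were 1 without trend, 2 with the replicate block, 1 with the acinar covariate and 1 without both libraries numbered 3, and 0 to 1 in each direction with 1 library left out.

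Over all rows, the count higher was 553 with trimmed mean scaling, 360 with quantile normalization, 445 with the replicate block and 381 with the acinar covariate. Of the 15864 rows, the count lower was 366 with trimmed mean scaling, 431 with quantile normalization, 498 with the acinar covariate and 807 with the replicate block. Without both libraries numbered 3 the count lower was 370. Leaving out single libraries gave 187 to 361 higher and 391 to 895 lower. Past an adjusted p there were 2 with the replicate block, 1 without both libraries numbered 3 and 0 to 3 with 1 library left out. No blocked value of the 15 members passed an adjusted p.

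The 15 members given in full had 29 of 239 alternative log2 fold changes on the other side of 0, all small and none past an adjusted p. Trimmed mean scaling turned Cdh17 to 0.03, Epcam to 0.04, Gjb1 to 0.02 and Tjp3 to 0.03. Quantile normalization turned Cdhr5 to −0.01, Cldn15 to −0.05, Cldn3 to −0.06, Cldn7 to −0.03 and F11r to −0.03. The acinar covariate turned Cdh17 to 0.06, Cldn15 to −0.05, Gjb1 to 0.2 and Tjp3 to 0.03. Without both libraries numbered 3, Cldn3 was −0.06, Cldn7 −0.01 and F11r −0.05. With 1 library left out, values ran from −0.09 to 0.03 for Cdh17, −0.07 to 0.12 for Cldn15, −0.07 to 0.05 for Cldn3, −0.06 to 0.02 for Epcam, −0.02 to 0.07 for F11r, −0.2 to 0.1 for Gjb1, −0.01 to 0.09 for Jup and −0.09 to 0.03 for Tjp3. Genes under 1 FPKM rest on few reads, and 3 mice per group limit all differences.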
